A study of Vitis vinifera with 36 samples.

Results

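Phenylalanine ammonia-lyase (PAL) takes the amino group off phenylalanine and so feeds carbon from primary metabolism into the phenylpropanoid pathway. The product, cinnamic acid, passes through cinnamate 4-hydroxylase (C4H) and 4-coumarate: CoA ligase (4CL) to coumaroyl-CoA, which chalcone synthase (CHS) draws into flavonoids such as anthocyanins and flavonols, while stilbene synthases draw on the same substrate for stilbenes. PAL of plants is encoded by a gene family, and in grapevine many of its members lie close together.

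The genes described here were 9 PAL copies in a single run of identifiers of chromosome 16, from VIT_216s0039g01100 to VIT_216s0039g01360, chosen by identifier out of 28119 genes listed in any library. The study's gene list annotates VIT_216s0039g01100, VIT_216s0039g01110, VIT_216s0039g01120, VIT_216s0039g01130, VIT_216s0039g01170 and VIT_216s0039g01300 as PAL. They are called g01100, g01110, g01120, g01130, g01170 and g01300 below. The sources used here do not annotate the remaining 3, VIT_216s0039g01240, VIT_216s0039g01280 and VIT_216s0039g01360 (g01240, g01280 and g01360), which were placed in the cluster by the rule alone. Coordinates and sequences were not used here, since the reference table matched 0 identifiers of these files.

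De-seeded berries (skin and pulp) of 2 table grapes, the white ‘Victoria’ and the black ‘Muscat Hamburg’, were sequenced in the summer and the winter season. Sampling was at the onset of veraison (E-L 35), its completion (E-L 36) and harvest (E-L 38), and each of the 12 groups had 3 biological replicates. All vines were 7 years old, were grafted on SO4 rootstock and stood under rain shelter in southern China. The summer crop was forced with hydrogen cyanamide after pruning in February, and the winter crop of the same 2014 vintage followed a further pruning in August, when the vines were defoliated by hand and hydrogen cyanamide was put only on the terminal bud and around the cut. Each replicate was a pool of many berries, so the p-values cover the spread between pools within a single vintage. Season cannot be told apart from pruning date, defoliation, the way hydrogen cyanamide was applied or sampling date. In bulk tissue, fewer cells of a type and less RNA per cell cannot be told apart.

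The libraries held 5624449 to 18606068 estimated counts. Expression of VviMYBA1 (VIT_202s0033g00410), the regulator that switches on colour, was 11.85 to 71.63 FPKM in the libraries labelled ‘Muscat Hamburg’ and at most 0.63 FPKM in those labelled ‘Victoria’. The most similar library was one of the same group for 33 of 36 libraries. The exceptions were replicate 1 of the E-L 36 and the E-L 38 ‘Victoria’ summer season berries and replicate 1 of the ‘Muscat Hamburg’ summer season berries at E-L 36. The first of these correlated with replicate 3 of ‘Victoria’ summer E-L 38 at r = 0.992 and with its own group at no more than r = 0.977. Replicate 1 of ‘Victoria’ summer E-L 38 in turn was most like replicate 3 of E-L 36 (r = 0.98956), by a narrow margin over its own group (at most r = 0.98947). Whether these 2 libraries were exchanged was not tested, and both were used as labelled, so every ‘Victoria’ summer value at E-L 36 and E-L 38 carries this doubt. Counts that changed without the first, or without both, are given beside the result.

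FPKM, which divides the fragments of a gene by its length and by the size of the library, allows the copies to be set side by side. The PAL copies were all of similar length, 2246 to 2771 bases. By the median FPKM over the 36 libraries, g01100 was the highest with 7.68, g01170 had 4.22 and g01120 had 3.00. The medians of g01300, g01360, g01280, g01110 and g01130 were 2.62, 2.28, 2.07, 1.88 and 1.71 FPKM, and that of g01240 was the lowest at 1.14. Within a library, g01100 was the most abundant copy in 30 libraries, g01360 in 5 and g01170 in 1. Only g01240 and g01300 were listed at 0 anywhere, in 7 and in 8 libraries.

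Most estimated counts of the copies were not whole numbers. The estimated count was not a whole number (beyond a tolerance of 0.005) in every library for 7 of the copies, in 28 libraries for g01240 and in 27 for g01300, compared with 36.8% of all genes that had such a count in any library. The share for all genes is a looser measure, since any library sufficed. Whether reads were divided among similar copies was not tested, and differences between the copies are uncertain to that extent. Across the 36 libraries, log2(FPKM + 1) of any pair of copies correlated with a median r of 0.871 (0.622 to 0.942 over 36 pairs). This is a description, since all pairs share the same libraries, and g01360 stood lowest with a median r of 0.654 with the others. All 9 copies passed the test in the same direction in 2 of the 6 season comparisons and in 2 of the 8 stage comparisons described below, and their estimates had a single sign in 3 and in 4 of them.

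**Figure D1:**
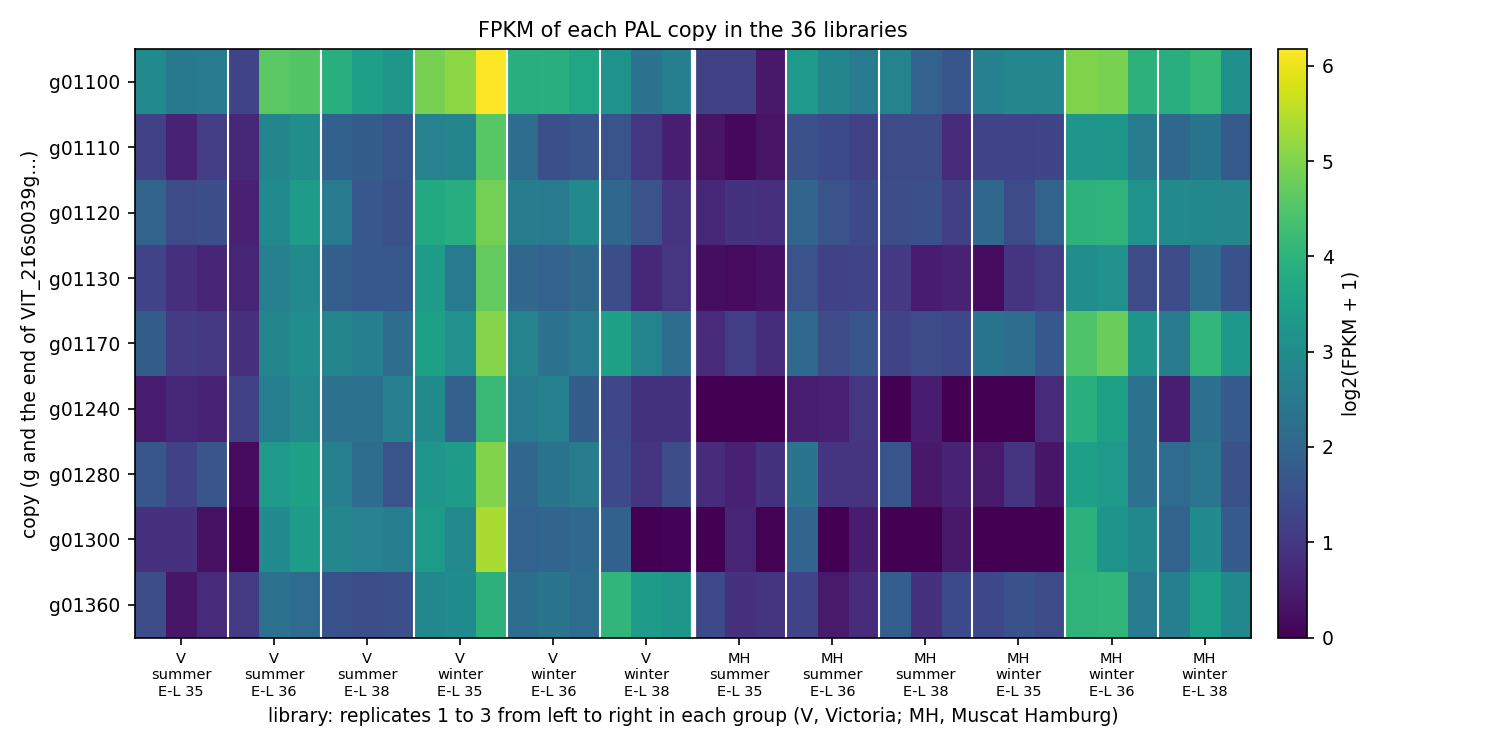
The heat map plots log2(FPKM + 1) of the 9 PAL copies (rows, named by the end of the identifier) in the 36 libraries (columns, 3 replicates in each of 12 groups; V, ‘Victoria’; MH, ‘Muscat Hamburg’). The brightest column is replicate 3 of the ‘Victoria’ winter season berries at E-L 35, where g01100 reached 71.23 FPKM, and g01360 stands out from the other copies in the 3 ‘Victoria’ winter libraries at E-L 38.

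The summed FPKM of the copies was highest at E-L 35 in the winter season berries of ‘Victoria’ grapes, with 98.14, 91.87 and 283.14 in the 3 replicates, and lowest at the same stage in the summer season berries of ‘Muscat Hamburg’ grapes, with 5.32, 5.49 and 4.18. In the ‘Victoria’ summer season berries the sum was 19.92, 11.84 and 13.02 at E-L 35. It was 6.37, 72.77 and 82.69 a stage later and 48.02, 37.60 and 33.01 at harvest. The ‘Victoria’ winter season berries went from their peak at E-L 35 to 45.80, 44.72 and 43.17 at E-L 36 and to 46.88, 25.04 and 22.69 at harvest. The highest mean was thus at E-L 35 in the winter and at E-L 36 in the summer season berries of this variety. The summer order is uncertain, since replicate 1 of the summer E-L 36 group lay below every other ‘Victoria’ library. Without replicate 3 the mean of that group was 39.57, against 39.54 at harvest. Whether the timing of the peak differed between the seasons was not tested.

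In the ‘Muscat Hamburg’ summer season berries the sum was 28.22, 14.50 and 14.20 at E-L 36 and 16.39, 10.07 and 8.61 at harvest. The winter season berries of the variety had 16.50, 16.64 and 16.68 at E-L 35, then 137.20, 130.56 and 56.83, and at harvest 42.34, 71.96 and 40.09. Both seasons of ‘Muscat Hamburg’ therefore had their highest mean at E-L 36. In the summer season berries the libraries of E-L 36 and harvest overlapped. Without replicate 1, whose most similar library was of another group, the summer mean at E-L 36 was 14.35, against 11.69 at harvest. The groups ranked by their mean (n = 3 in each) as ‘Victoria’ winter E-L 35 (158 ± 109, SD), ‘Muscat Hamburg’ winter E-L 36 (108 ± 44.6), ‘Victoria’ summer E-L 36 (53.9 ± 41.5), ‘Muscat Hamburg’ winter E-L 38 (51.5 ± 17.8), ‘Victoria’ winter E-L 36 (44.6 ± 1.32), ‘Victoria’ summer E-L 38 (39.5 ± 7.69) and ‘Victoria’ winter E-L 38 (31.5 ± 13.3). Below these came ‘Muscat Hamburg’ summer E-L 36 (19.0 ± 8.01), ‘Muscat Hamburg’ winter E-L 35 (16.6 ± 0.0945), ‘Victoria’ summer E-L 35 (14.9 ± 4.36), ‘Muscat Hamburg’ summer E-L 38 (11.7 ± 4.14) and ‘Muscat Hamburg’ summer E-L 35 (5.00 ± 0.712). Only the last 2 groups in this order were separated, and the libraries of all other neighbours overlapped. Together the copies made up between 0.00100% and 0.0678% of the counts of a library.

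**Figure D2:**
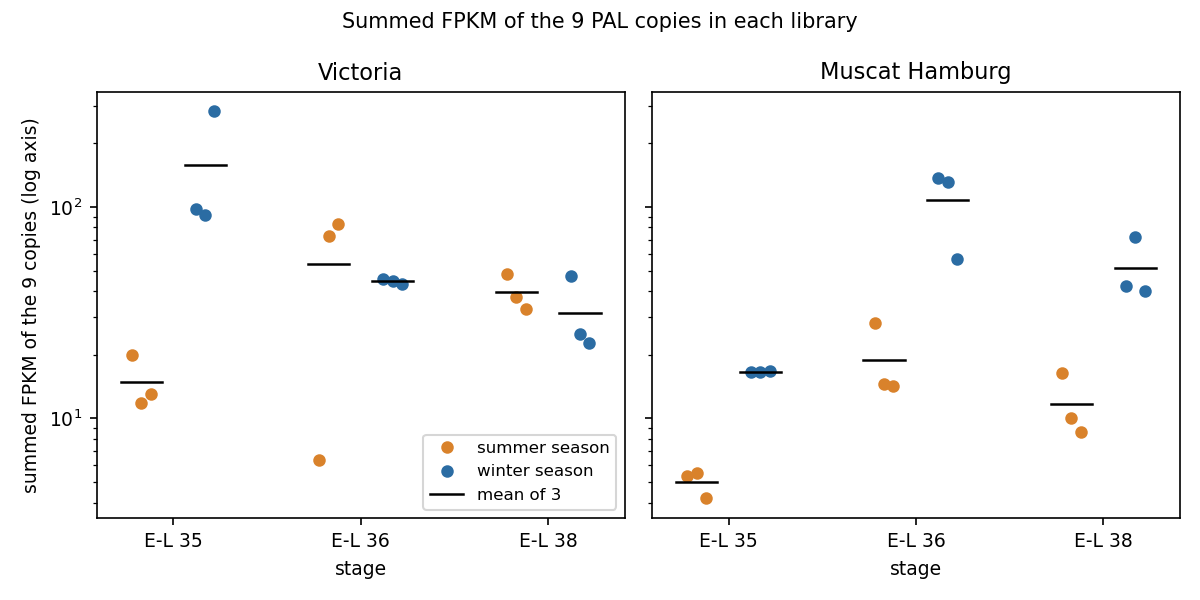
The plot gives the summed FPKM of the 9 PAL copies in each library on a log axis, by stage, with ‘Victoria’ on the left and ‘Muscat Hamburg’ on the right (orange points, summer season; blue points, winter season; black lines, mean of 3 libraries). The seasons do not overlap at E-L 35 of ‘Victoria’ and at any stage of ‘Muscat Hamburg’, and they overlap at E-L 36 and E-L 38 of ‘Victoria’, where replicate 1 of the summer E-L 36 group lies at 6.37.

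The season comparison asked whether the berries of the cooler winter crop differed in expression from those of the summer crop at the same stage. At E-L 35 of ‘Victoria’ grapes the summed FPKM was 10.6-fold higher in the winter season berries (log2 ratio of the means 3.40 ± 1.08, SD, n = 3 against 3), and 6.36-fold higher without replicate 3 of the winter group. The lead copy g01100 had 6.65, 4.60 and 4.93 FPKM in the summer and 28.86, 33.91 and 71.23 FPKM in the winter season berries. Every winter library lay far above every summer library. The edgeR quasi-likelihood test put g01100 at a log2 fold change of 3.21 (SE 0.54, adjusted p = 2.94e-05).

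All 9 copies passed the threshold upwards in the winter crop at this stage (at least 2-fold, with an adjusted p by Benjamini-Hochberg not above 0.05), compared with 8.44% of the 19736 genes tested. Their median log2 fold change was 3.58, with -0.01 over all genes tested. The highest was that of g01300, with 0.84, 0.84 and 0.22 FPKM in the summer and 9.26, 6.51 and 41.29 FPKM in the winter season berries and a log2 fold change of 5.05 (SE 1.10, adjusted p = 0.000602). All copies also stayed past the threshold when any 1 of the 6 libraries was left out.

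In the ‘Muscat Hamburg’ grapes the season difference spread over all stages and was broadest at E-L 36, where the summed FPKM was 5.70-fold higher in the winter season berries (log2 ratio 2.51 ± 0.85). With single libraries left out, the ratio ran from 4.94 (without winter replicate 1) to 7.54 (without summer replicate 1, whose most similar library was of another group). For g01100 the summer libraries had 8.89, 6.14 and 4.82 FPKM and the winter libraries 31.18, 29.41 and 14.66 FPKM, with a log2 fold change of 1.82 (SE 0.53, adjusted p = 0.00654 in edgeR). The FPKM of g01360 was 1.37, 0.36 and 0.73 in the summer and 15.12, 15.83 and 4.86 in the winter season berries, and its log2 fold change of 3.75 (SE 0.53, adjusted p = 1.9e-06) had the lowest adjusted p of the cluster. In both copies the seasons were fully apart, and winter replicate 3 was the lowest of its group.

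Every one of the 9 copies was upregulated in winter there, against 9.80% of all genes, with a median log2 fold change of 2.42 (-0.02 over all genes). The largest estimate was that of g01240, 3.81 (SE 0.78, adjusted p = 0.000298), from 0.43, 0.47 and 0.99 FPKM to 14.18, 10.38 and 3.92 FPKM. For g01240 too, the winter libraries all lay above the summer libraries.

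At harvest (E-L 38) the summed FPKM of the ‘Muscat Hamburg’ grapes was 4.40-fold higher in the winter season berries (log2 ratio 2.14 ± 0.71). For g01100 the values were 5.80, 2.84 and 2.15 FPKM in the summer and 13.62, 16.58 and 7.56 FPKM in the winter season berries, which did not overlap. In total 7 of the 9 copies were upregulated, compared with 8.90% of all genes, at a median log2 fold change of 2.07 (0.00 over all genes). The remaining copies had positive values that did not pass, 1.36 for g01110 (adjusted p = 0.0608) and 1.84 for g01280 (adjusted p = 0.0687).

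For g01300 at this stage, the summer libraries had 0.00, 0.00 and 0.33 FPKM and the winter libraries 2.99, 6.90 and 2.48 FPKM, with a fitted log2 fold change of 5.13 (SE 1.51, adjusted p = 0.00706). The summer values lie near the bottom of what these libraries can measure, so the size of this fold is uncertain, while the separation of the seasons is plain.

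At E-L 35 of ‘Muscat Hamburg’ grapes the cluster was low in both seasons, and the summed FPKM was 3.32-fold higher in the winter season berries (log2 ratio 1.73 ± 0.21). For g01100 it was 1.33, 1.31 and 0.35 FPKM in the summer and 5.58, 6.20 and 6.20 FPKM in the winter season berries, without overlap. Upregulated were 3 copies, g01100 (log2 fold change 2.52, SE 0.64, adjusted p = 0.00631), g01110 (2.75, SE 0.79, adjusted p = 0.0155) and g01170 (1.89, SE 0.65, adjusted p = 0.0431), compared with 4.15% of all genes. The median of the cluster was 1.89 on the log2 scale, with 0.00 over all genes.

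Leaving out replicate 2 of the summer group at that stage lowered the count to 1 copy, as did limma on log2(FPKM + 1), while DESeq2 gave 6 copies and the compared libraries fitted alone gave 6 higher and 1 lower. For g01280 and g01360 the log2 fold changes were -0.42 (adjusted p = 0.824) and 0.62 (adjusted p = 0.473). The counts of g01240 were 0 in all summer libraries and those of g01300 were 0 in all winter libraries, so these copies have no fitted fold here. Measured against a limit of 3 counts in each library, g01240 was at least 2.47-fold higher in the winter season berries (0.00, 0.00 and 0.70 FPKM), which rests on a single library, and g01300 at least 1.50-fold lower (0.00, 0.57 and 0.02 FPKM in the summer season berries), again from 1 library. Neither bound held without that library, and neither difference passed the edgeR test (adjusted p = 0.164 and 0.467).

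The ‘Victoria’ grapes differed from this pattern after the onset of veraison. At E-L 36 the summed FPKM of the winter season berries was 0.826 of that of the summer season berries, with overlapping libraries. The direction rested on single libraries, since the ratio was 0.573 without replicate 1, 1.00 without replicate 2 and 1.13 without replicate 3 of the summer group. For g01100 the values were 1.35, 23.02 and 21.99 FPKM in the summer and 13.74, 14.21 and 11.65 FPKM in the winter season berries, so the winter libraries fell between the summer libraries. By edgeR 0 of the 9 copies passed the threshold in either direction, and 0 had an unadjusted p under 0.05, compared with 23.6% of all genes past the threshold.

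DESeq2 and limma also called 0 copies at that stage, while 1 copy was lower when replicate 1 of the summer group was left out, alone or with its E-L 38 counterpart. The log2 fold changes ran from -0.80 (g01110, SE 0.55, adjusted p = 0.228) to 0.47 (g01360, SE 0.47, adjusted p = 0.426). At the spread of the summer group a difference of this size could not be told from 0.

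At harvest of the ‘Victoria’ grapes the estimates of the copies had both signs, and differences between copies were not tested. The FPKM of g01360 was 1.95, 1.80 and 1.86 in the summer and 15.71, 9.66 and 8.64 in the winter season berries. Every winter library was above every summer library, and g01360 was upregulated with a log2 fold change of 2.56 (SE 0.48, adjusted p = 5.3e-05), the only copy of the 9 to be so (10.9% of all genes were). When single libraries were left out, its log2 fold change stayed between 2.33 and 2.70.

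In contrast, g01240 and g01300 were downregulated in the winter season berries at harvest, as were 15.9% of all genes. Counts of 1 upregulated and 2 downregulated copies of 9 were not far from the shares among all genes. For g01240 the values went from 3.97, 3.91 and 5.44 FPKM to 1.48, 0.88 and 0.87 FPKM (log2 fold change -2.08, SE 0.75, adjusted p = 0.0211). For g01300 they went from 6.22, 5.67 and 5.22 FPKM to 2.76, 0.00 and 0.05 FPKM (-2.77, SE 1.13, adjusted p = 0.0401). The seasons did not overlap in either copy, yet both calls were lost with DESeq2, the compared libraries fitted alone called 4 copies lower, and the count fell to 0 without summer replicate 3, winter replicate 2 or winter replicate 3 and to 1 without summer replicate 1 or 2.

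The remaining copies of ‘Victoria’ at harvest did not pass the test. The lead copy g01100 had 14.11, 10.26 and 8.69 FPKM in the summer and 7.79, 4.07 and 5.32 FPKM in the winter season berries, with a log2 fold change of -0.98 (SE 0.54, adjusted p = 0.129). Its seasons were apart, but by less than the model requires. The log2 fold changes of g01110, g01120, g01130 and g01280 lay between -1.40 and -0.60, and that of g01170 was 0.37 (SE 0.55, adjusted p = 0.59). The summed FPKM, in which the rise of g01360 and the lower values of other copies met, was 0.798 of the summer value, with overlapping libraries.

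**Figure D3:**
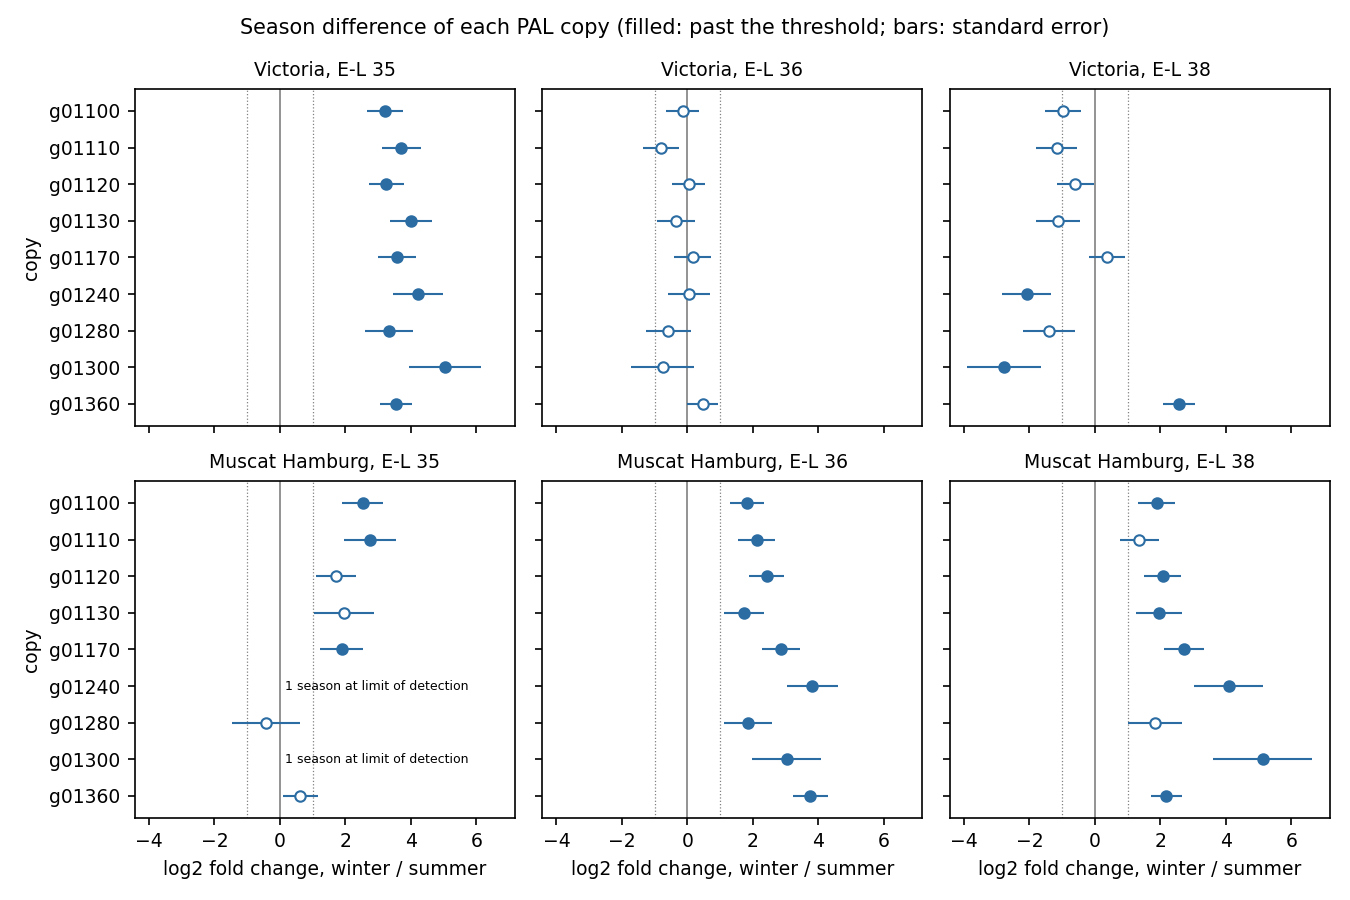
The panels give the log2 fold change of each PAL copy between the winter and the summer season berries (edgeR, 3 libraries against 3), with its standard error as a bar, for ‘Victoria’ (top) and ‘Muscat Hamburg’ (bottom) at the 3 stages. Filled points passed the threshold, dotted lines mark a fold change of 2, and 2 copies of ‘Muscat Hamburg’ at E-L 35 have no point because 1 season was at the limit of detection. All points are filled and to the right at E-L 35 of ‘Victoria’ and at E-L 36 of ‘Muscat Hamburg’, and g01360 alone is filled on the right at E-L 38 of ‘Victoria’.

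Whether the season difference itself differed between the varieties was tested as an interaction in the same edgeR model. At E-L 35 the difference was smaller in ‘Muscat Hamburg’ than in ‘Victoria’ grapes for 2 copies, g01280 (-3.74 on the log2 scale, SE 1.24, adjusted p = 0.0355) and g01360 (-2.93, SE 0.73, adjusted p = 0.00612), while 3.73% of all genes passed in that direction. For g01100, which passed the season test in both varieties, the interaction was -0.69 (SE 0.84, adjusted p = 0.621). The count fell to 1 copy without ‘Victoria’ summer replicate 2 or 3, ‘Victoria’ winter replicate 3, or replicate 1 or 3 of either season of ‘Muscat Hamburg’, and was 5 with limma on log2(FPKM + 1).

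At E-L 36 the season difference was larger in ‘Muscat Hamburg’ for 5 copies, compared with 6.24% of all genes. These were g01360 (3.28, SE 0.71, adjusted p = 0.00157), g01110 (2.92, adjusted p = 0.00949), g01240 (3.76, adjusted p = 0.0103), g01170 (2.69, adjusted p = 0.0171) and g01120 (2.38, adjusted p = 0.0216). The other 4 had values of 1.97 to 3.79 that did not pass. The count was 3 with limma on log2(FPKM + 0.1) and with the compared libraries fitted alone. It was 9 without ‘Victoria’ summer replicate 1 (alone or at both stages), 8 without ‘Muscat Hamburg’ summer replicate 1 and 3 without ‘Victoria’ summer replicate 3.

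At harvest 8 copies had a larger season difference in ‘Muscat Hamburg’ than in ‘Victoria’ grapes, against 4.74% of all genes, with g01100 at 2.86 (SE 0.78, adjusted p = 0.0113). The exception was g01360, with -0.38 (SE 0.68, adjusted p = 0.762), which rose in the winter season berries of both varieties. The count was 3 to 5 copies when replicate 1 or 2 of ‘Victoria’ summer, replicate 2 or 3 of ‘Victoria’ winter, replicate 2 or 3 of ‘Muscat Hamburg’ summer or replicate 2 of ‘Muscat Hamburg’ winter was left out. It was 4 with limma on log2(FPKM + 1) and 5 with library size alone.

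Within ‘Victoria’ grapes, the season difference was smaller at harvest than at E-L 35 for 8 copies, in which direction 14.9% of all genes passed. For g01100 the change was -4.19 (SE 0.76, adjusted p = 6.38e-05) and for g01130 it was -5.12 (SE 0.90, adjusted p = 4.39e-05). Again g01360 was the copy that did not pass, at -0.99 (SE 0.68, adjusted p = 0.254). Leaving out any 1 library gave 8 or 9 copies. Within ‘Muscat Hamburg’ grapes 0 copies passed in this comparison with edgeR (13.9% of all genes did), while 2 had an unadjusted p under 0.05, DESeq2 called 1, limma on log2(FPKM + 0.1) called 1 and the compared libraries fitted alone called 3.

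The stage comparisons asked when during ripening the cluster changed. In the summer season berries of ‘Victoria’ all 9 copies were upregulated from E-L 35 to E-L 36, compared with 7.08% of all genes, g01100 by 1.73 (SE 0.53, adjusted p = 0.00901) and g01300 by 3.28 (SE 1.08, adjusted p = 0.0159) on the log2 scale. The rise came from replicates 2 and 3, since g01100 had 1.35, 23.02 and 21.99 FPKM at E-L 36. The count was 5 without replicate 2 and 4 without replicate 3 of that group. It was 1 with the compared libraries fitted alone, and 3 and 4 with limma on log2(FPKM + 0.1) and log2(FPKM + 1), so most of these calls depend on the model. From E-L 36 to E-L 38, 0 copies passed with edgeR, DESeq2 or limma, and 0 had an unadjusted p under 0.05, where 0.218% of all genes passed, and 1 copy was lower when replicate 1 of E-L 36, or of both stages, was left out.

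The winter season berries of ‘Victoria’ went the other way. From E-L 35 to E-L 36 there were 8 downregulated copies (12.2% of all genes), g01100 with a log2 fold change of -1.63 (SE 0.51, adjusted p = 0.0111) and g01110 with -2.06 (SE 0.55, adjusted p = 0.00308). The copy that did not pass was g01240, at -0.93 (SE 0.64, adjusted p = 0.255). This count rests on the library with the highest sum, since it was 0 without replicate 3 of E-L 35. It was 5, 4 and 5 without replicate 1, 2 and 3 of E-L 36, and 4 with limma on log2(FPKM + 0.1).

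From E-L 36 to E-L 38 of the same berries only g01360 passed upwards (1.41% of all genes did), from 3.68, 4.22 and 3.52 FPKM to 15.71, 9.66 and 8.64 FPKM. The stages did not overlap, and the log2 fold change was 1.52 (SE 0.45, adjusted p = 0.0177). The call was lost without replicate 1 or 3 of E-L 36 or replicate 1 of E-L 38, and without the last of these 1 copy was lower. For 7 of the other copies the log2 fold changes lay between -2.05 and -1.22 without passing, and g01170 had 0.36. The compared libraries fitted alone called 5 copies lower, and DESeq2 called 1.

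In the ‘Muscat Hamburg’ winter season berries all 9 copies were upregulated from E-L 35 to E-L 36, compared with 5.60% of all genes. For g01100 the log2 fold change was 2.14 (SE 0.54, adjusted p = 0.00244), and for g01280, which went from 0.36, 0.92 and 0.29 FPKM to 10.29, 9.16 and 4.06 FPKM, it was 3.96 (SE 0.87, adjusted p = 0.000726). For g01300, with 0 counts in all libraries at E-L 35 and 14.77, 8.19 and 6.41 FPKM at E-L 36, the rise was at least 74.5-fold. From there to harvest, g01240 alone was downregulated (-2.03, SE 0.67, adjusted p = 0.0256), as were 6.57% of all genes, a call that was lost with DESeq2 and without replicate 1 or 2 of E-L 36 or replicate 1 or 3 of E-L 38. The compared libraries fitted alone called 4 copies lower.

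The summer season berries of ‘Muscat Hamburg’ had 4 upregulated copies from E-L 35 to E-L 36 (3.85% of all genes), g01100 by 2.84 (SE 0.64, adjusted p = 0.00167), g01110 by 3.11 (SE 0.78, adjusted p = 0.00435) and g01130 by 3.13 (SE 0.83, adjusted p = 0.007) on the log2 scale. The fourth was g01240, from 0 counts to 0.43, 0.47 and 0.99 FPKM, which was at least 6.68-fold higher. The value of g01360 was -0.28 (adjusted p = 0.781). With limma on log2(FPKM + 1) the count was 1. From E-L 36 to E-L 38, 0 copies passed with edgeR, DESeq2 or limma, and 0 had an unadjusted p under 0.05 (1.15% of all genes passed).

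The varieties were compared within season and stage. At E-L 35 of the winter season all 9 copies were lower in ‘Muscat Hamburg’ than in ‘Victoria’ grapes, compared with 8.25% of all genes, g01100 with a log2 fold change of -2.82 (SE 0.54, adjusted p = 0.000212) and g01280 with -4.88 (SE 0.87, adjusted p = 8.85e-05). The ‘Victoria’ libraries had 8.49, 9.54 and 30.90 FPKM of g01280 and the ‘Muscat Hamburg’ libraries 0.36, 0.92 and 0.29 FPKM. The difference of g01300, at 9.26, 6.51 and 41.29 FPKM in ‘Victoria’ and at 0 counts in all ‘Muscat Hamburg’ libraries, was at least 145-fold. Without ‘Victoria’ replicate 3, which carried the mean, that limit was 60.0-fold. Both copies separated the varieties fully.

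A stage later the order of the varieties in the winter season berries was the opposite. At E-L 36 there were 3 copies that were higher in ‘Muscat Hamburg’, g01170 (1.90, SE 0.54, adjusted p = 0.00638), g01360 (1.66, SE 0.45, adjusted p = 0.00446) and g01110 (1.57, SE 0.54, adjusted p = 0.0246), compared with 8.37% of all genes. The count was 6 with the compared libraries fitted alone. At harvest g01120 (1.78, SE 0.55, adjusted p = 0.0154) and g01110 (1.64, SE 0.61, adjusted p = 0.0447) were higher in ‘Muscat Hamburg’ (6.91% of all genes were). That count was 1 without ‘Victoria’ replicate 2 or ‘Muscat Hamburg’ replicate 1 or 2, and 0 without ‘Victoria’ replicate 3. It was 1 with limma on log2(FPKM + 1) or library size alone and 5 with the compared libraries fitted alone.

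In the summer season berries the copies that passed were all lower in ‘Muscat Hamburg’ than in ‘Victoria’ grapes. At E-L 35 these were 3 copies (12.2% of all genes), g01100 (-2.13, SE 0.63, adjusted p = 0.00682), g01110 (-2.00, SE 0.79, adjusted p = 0.0405) and g01240, with 0 counts in ‘Muscat Hamburg’ and at least 5.58-fold more in ‘Victoria’ (0.40, 0.65 and 0.53 FPKM). The count was 1 with any single ‘Muscat Hamburg’ library of that group left out and with limma on log2(FPKM + 1), 5 with library size alone and 6 with the compared libraries fitted alone. The ‘Victoria’ values of g01240 were themselves low.

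At E-L 36 of the summer season 2 copies were lower in ‘Muscat Hamburg’, g01240 (-2.62, SE 0.79, adjusted p = 0.0104) and g01360 (-1.63, SE 0.56, adjusted p = 0.0213), compared with 10.3% of all genes. Here the atypical library weighed most, as 8 copies were lower without ‘Victoria’ replicate 1, alone or at both stages. The count was 1 and 0 without ‘Victoria’ replicate 2 and 3, and 4, 1 and 1 without ‘Muscat Hamburg’ replicate 1, 2 and 3. The compared libraries fitted alone gave 1.

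At harvest of the summer season 5 copies were lower in ‘Muscat Hamburg’ (10.7% of all genes), g01100 (-1.62, SE 0.56, adjusted p = 0.0207), g01130 (-1.86, SE 0.70, adjusted p = 0.0324), g01170 (-1.68, SE 0.61, adjusted p = 0.0287), g01240 and g01300. The FPKM of g01240 was 3.97, 3.91 and 5.44 in ‘Victoria’ and 0.00, 0.41 and 0.00 in ‘Muscat Hamburg’ grapes (log2 fold change -5.00, SE 1.00, adjusted p = 0.000244), and that of g01300 was 6.22, 5.67 and 5.22 in ‘Victoria’ and 0.00, 0.00 and 0.33 in ‘Muscat Hamburg’ grapes (-5.53, SE 1.49, adjusted p = 0.00388). Both copies were near 0 in ‘Muscat Hamburg’, so the direction is firmer than the size. The count was 2 or 3 without ‘Victoria’ replicate 1 or 2 or ‘Muscat Hamburg’ replicate 2 or 3, and 3 with limma on log2(FPKM + 1).

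The makeup of the sum differed between groups, most clearly through g01360, g01240 and g01300. Over the 36 libraries g01100 held 28.2% ± 7.22 (SD) of the summed FPKM, g01170 14.6% ± 5.05, g01360 12.2% ± 9.44 and g01120 12.1% ± 3.80. The copies g01280, g01110, g01300, g01130 and g01240 held 8.55% ± 4.22, 7.07% ± 2.71, 5.98% ± 5.03, 5.86% ± 2.09 and 5.41% ± 4.71. By group (n = 3), the mean share ran from 0% to 14.6% for g01300 and from 0% to 11.8% for g01240. In the ‘Victoria’ winter season berries at E-L 38 the share of g01360 was 36.7% ± 2.79 (n = 3) and that of g01100 was 18.8% ± 4.05, while in the summer season berries at the same stage they were 4.83% ± 0.788 and 27.7% ± 1.56. The share of g01170 was likewise high in those winter libraries, at 20.8% ± 3.94. In the ‘Muscat Hamburg’ summer season berries the mean share of g01360 was 21.9% at E-L 35, where all copies were low, and 4.16% at E-L 36.

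**Figure D4:**
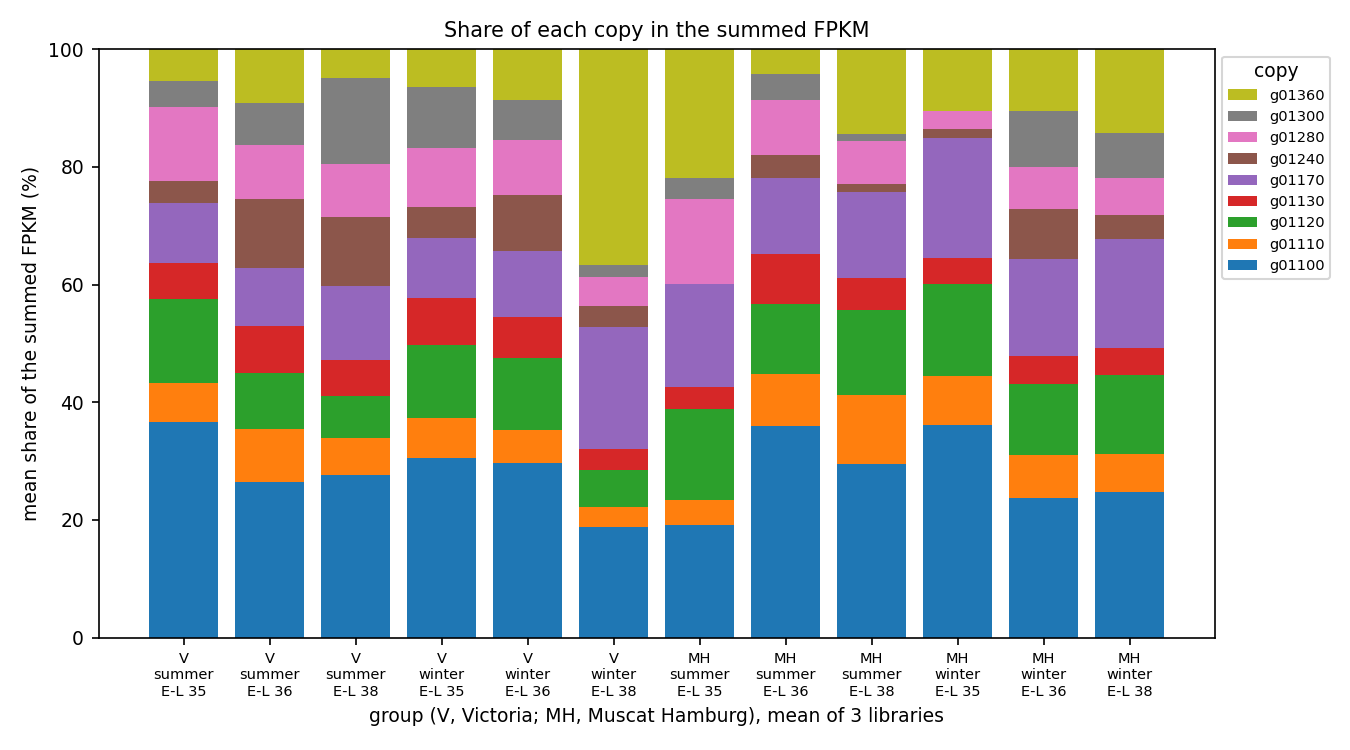
The stacked bars give the mean share (%) of each PAL copy in the summed FPKM of the 9 copies, by group, over 3 libraries each (V, ‘Victoria’; MH, ‘Muscat Hamburg’). The top segment, g01360, takes 36.7% in the winter season berries of ‘Victoria’ at E-L 38 and 4.83% in the summer season berries of that stage.

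The change of rank can be read from the ratio of g01360 to g01100 within a library, which does not depend on library scaling. This pair was singled out after its values were seen, and the ratio is a description. In the ‘Victoria’ winter season berries at E-L 38, log2 of the ratio was 0.99 ± 0.27 (0.70 to 1.25), the only group in which g01360 exceeded g01100 in every library. It was -2.53 ± 0.32 in the summer season berries of that stage, and between -2.93 and -1.79 on average in the other ‘Victoria’ groups. In ‘Muscat Hamburg’ grapes at harvest the ratio was -0.76 ± 0.56 in the winter and -1.10 ± 0.67 in the summer season berries, which overlapped. It was 0.31 ± 1.00 in the summer season berries of that variety at E-L 35, where g01360 reached at most 1.56 FPKM.

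**Figure D5:**
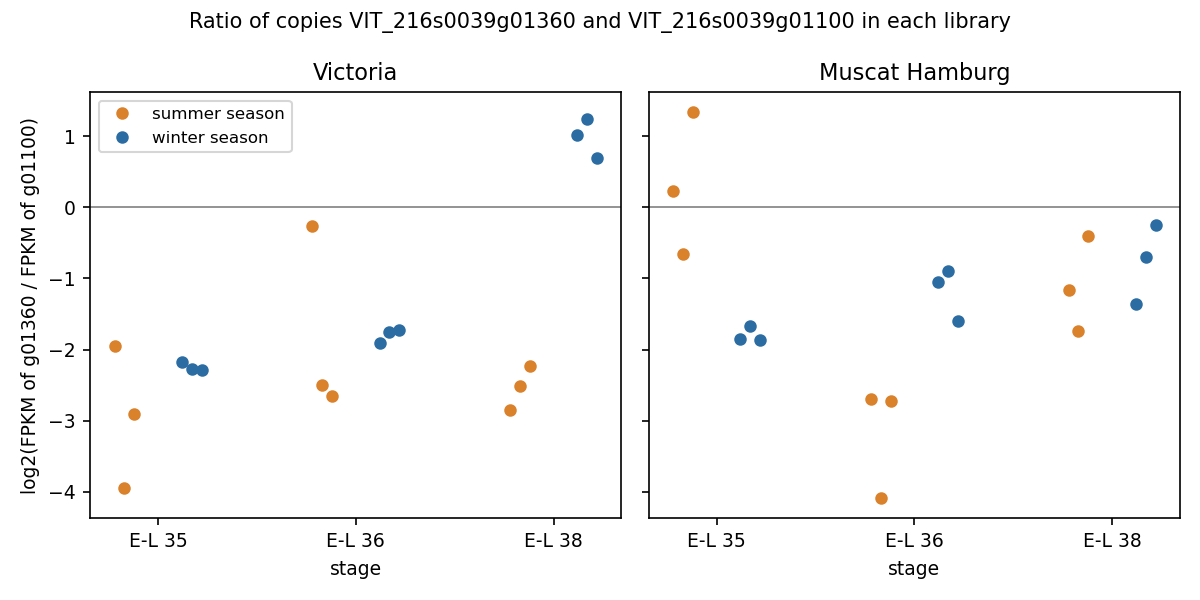
The plot gives log2 of the FPKM of g01360 over that of g01100 in each library by stage (orange points, summer season; blue points, winter season; left, ‘Victoria’; right, ‘Muscat Hamburg’; the grey line marks equal FPKM). The 3 winter libraries of ‘Victoria’ at E-L 38 lie at 0.70 to 1.25, and the 3 summer libraries of that stage at -2.86 to -2.22.

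The rest of the shared upstream pathway was read from 17 further genes that the study's list annotates from PAL to flavanone 3-hydroxylase (F3H). In the winter season berries, 15 of these were upregulated at E-L 35 of ‘Victoria’, and 12, 14 and 9 at the successive stages of ‘Muscat Hamburg’, with 0 downregulated in those 4 comparisons. Their median log2 fold changes there were 2.89, 1.96, 2.07 and 1.42. At E-L 36 of ‘Victoria’ 6 were upregulated and 2 downregulated, compared with 9.96% and 13.6% of all genes. At E-L 38 of ‘Victoria’ 5 were upregulated and 2 downregulated, compared with 10.9% and 15.9%. The 2 downregulated genes of 17 at each of these stages did not exceed the share among all genes. The upward shares at E-L 35 of ‘Victoria’ and the stages of ‘Muscat Hamburg’ were 8.44%, 4.15%, 9.80% and 8.90%. Downwards, 8.87% of all genes passed at E-L 35 of ‘Victoria’ and 11.1% at E-L 38 of ‘Muscat Hamburg’. With so few genes in the list, 0 downregulated genes in these 2 comparisons is not far from such shares. For E-L 35 and E-L 36 of ‘Muscat Hamburg’ no downward share of all genes is given here, so the 0 there was not judged. By steps, both CHS and both F3H genes were upregulated in all 3 comparisons of ‘Muscat Hamburg’, while of 3 C4H genes 3 were so at E-L 36 and 1 at each of the other stages.

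The genes of this list that passed downwards were a 4CL gene (VIT_211s0052g01090) at E-L 36 and E-L 38 of ‘Victoria’ (just past the 2-fold threshold with adjusted p = 0.0397, and log2 fold change -1.08, adjusted p = 0.0293), an F3H gene (VIT_204s0023g03370) at E-L 36 (-1.07, adjusted p = 0.0479) and a PAL gene of another chromosome (VIT_208s0040g01710) at E-L 38 (-1.21, adjusted p = 0.0494). All 4 values lay close to the threshold. The count at E-L 36 was 0 with any single winter library left out and 1 without summer replicate 2 or 3, and that at E-L 38 was 0 without summer replicate 3 or winter replicate 2 or 3 and 1 without summer replicate 1, alone or with replicate 1 of E-L 36.

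The PAL genes outside the cluster differed in their pattern over the libraries. Log2(FPKM + 1) of VIT_200s2849g00010 and VIT_208s0040g01710 followed that of the summed cluster with r = 0.898 and 0.831 over the 36 libraries of both varieties. For VIT_206s0004g02620 and VIT_213s0019g04460 r was 0.143 and 0.104. By season, the latter pair was nonetheless upregulated in winter at E-L 35 of ‘Victoria’, with log2 fold changes of 4.67 and 2.89. The pair was also upregulated at each stage of ‘Muscat Hamburg’ (3.01, 2.64 and 1.93 for VIT_206s0004g02620, and 2.12, 2.56 and 1.67 for VIT_213s0019g04460). Both genes were further upregulated in winter in E-L 36 ‘Victoria’ grapes, where the 9 copies did not pass, with log2 fold changes of 2.12 (SE 0.48, adjusted p = 0.000558) and 1.97 (SE 0.29, adjusted p = 2e-06). At harvest of ‘Victoria’ VIT_213s0019g04460 had 1.71 (SE 0.32, adjusted p = 4.57e-05) and VIT_206s0004g02620 1.10 (SE 0.52, adjusted p = 0.0737). These correlations are over libraries that share groups and are given without a test.

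A further gene of the same run, VIT_216s0039g01320, carries a PAL annotation in the study's list but is only 466 bases long and was not counted among the 9. In the ‘Victoria’ winter libraries at E-L 35 its lowest, median and highest FPKM were 5.83, 7.83 and 26.57, all above the highest summer library at 0.65, with a log2 fold change of 5.43 (SE 0.97, adjusted p = 5.83e-05). It was upregulated as well at E-L 36 of ‘Muscat Hamburg’ (2.49, SE 0.98, adjusted p = 0.0423), and its pattern followed the summed cluster with r = 0.775.

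The genes whose log2(FPKM + 1) was most like that of the summed cluster over the 36 libraries were VIT_216s0100g01000 (r = 0.952), VIT_210s0042g00850 (r = 0.943), VIT_216s0100g00880 (r = 0.932), VIT_216s0100g01020 (r = 0.931) and VIT_216s0100g00900 (r = 0.930). The sources used here do not annotate them. The plan held a run of chromosome 16 identifiers, VIT_216s0100g00750 to VIT_216s0100g01200, that was not drawn from this ranking. The run was still chosen with earlier results of these data known, so its likeness to the cluster is a description. Of its 33 listed identifiers 30 were tested, and 28 stood among the 100 genes most like the cluster. Of the 30 tested, the winter season berries had 30, 1 and 0 upregulated and 0, 0 and 9 downregulated genes at the successive stages of ‘Victoria’, and 7, 26 and 10 upregulated and 0 downregulated genes at the stages of ‘Muscat Hamburg’. Upward, 8.44%, 9.96% and 10.9% of all genes passed in ‘Victoria’ and 4.15%, 9.80% and 8.90% in ‘Muscat Hamburg’. Downwards, 8.87%, 13.6% and 15.9% passed at the stages of ‘Victoria’ and 11.1% at E-L 38 of ‘Muscat Hamburg’. No downward share is given here for E-L 35 and E-L 36 of ‘Muscat Hamburg’, so the 0 downregulated genes there were not judged. Like the PAL copies, the run was upregulated as a whole at E-L 35 of ‘Victoria’ and in most members at E-L 36 of ‘Muscat Hamburg’. Among its less stable counts, 6 genes were downregulated at E-L 36 of ‘Victoria’ without summer replicate 1, and 2 upregulated without summer replicate 2. In ‘Muscat Hamburg’ 2 to 4 were upregulated at E-L 35 without any 1 library, 16 at E-L 36 without summer replicate 2, and 1 at E-L 38 without winter replicate 2 (6 without summer replicate 2 or 3). At E-L 38 of ‘Victoria’ 5 were downregulated without winter replicate 2 or 3.

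Between the first and the last PAL copy the run holds 15 other identifiers, of which 9 passed the filter on low counts, and the sources used here annotate only VIT_216s0039g01320 among them. In the winter season berries of ‘Victoria’ 4 of these 9 were upregulated at E-L 35 (8.44% of all genes), 2 at E-L 36 (9.96%) and 1 at E-L 38 (10.9%). Downregulated were 1 at E-L 35 (8.87%), 0 at E-L 36 (13.6%) and 4 at E-L 38 (15.9%). In ‘Muscat Hamburg’ 1, 3 and 0 were upregulated at the successive stages (4.15%, 9.80% and 8.90%), and 1 was downregulated at E-L 38 (11.1%).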

How the data were processed

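Total RNA of de-seeded berries was sequenced as short single reads in 36 libraries, which were grouped by their labels. The authors aligned the reads to the grapevine genome 12X V2 with at most 2 mismatches. The submitters' processing notes name Bowtie, and the counting program is not given in the sources used here. The deposited lists give an estimated count per gene (expected count, not normalized), the FPKM value and the transcript length the authors used. A gene missing from a list was set to 0. A deposited table with 36 columns whose headings match no sample label was not used.

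Estimated counts were rounded and tested with the quasi-likelihood test of edgeR 4.0.16 in R 4.3.3. Genes passed filterByExpr (19736 of 28119, with all 9 PAL copies), scaling was by TMM, and the 12 groups were fitted together for 25 contrasts. Thresholds were a 2-fold change and an adjusted p (Benjamini-Hochberg over all genes tested) not above 0.05. Standard errors are the absolute log2 fold change over the root of the F statistic. The SD of a ratio of summed means was propagated from both groups. A group with at most 3 counts in each library counts as at the limit of detection, and folds against it are lower bounds that cover counting error only. The steps were also run on simulated counts in which all genes had a single common dispersion (0.0294). That run does not cover genes that vary more between replicates, as the PAL copies did in some groups. Alternatives were DESeq2 1.42.0, limma 3.58.1 on log2(FPKM + 1) and log2(FPKM + 0.1), other scalings and filters, unrounded counts, only the libraries compared, a replicate block, no fold condition, the sum without its lead copy, and leaving out each library. Leaving out 2 libraries together and leaving out libraries from the lower bounds were added after the data were seen. The genes given by name were the PAL copies, VIT_216s0039g01320, the PAL genes elsewhere, pathway genes past the threshold against most of their list, and the 5 genes with the highest r with the summed cluster. The copies, lists and tests were chosen with earlier results of these data known. The planned check for seed carry-over could not be run without annotation.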

Additional observations from a re-analysis of the deposited data

Results flagged for a closer look

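The season difference of the PAL copies differed between the varieties or between stages, by the interaction test of edgeR, in the following cases (log2 scale). They are measurements without an explanation. Each count rests on 3 libraries in every group.

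As ‘Muscat Hamburg’ minus ‘Victoria’, the value at E-L 35 was -3.74 for g01280 and -2.93 for g01360. At E-L 36 it was 2.92 for g01110, 2.38 for g01120, 2.69 for g01170, 3.76 for g01240 and 3.28 for g01360. At harvest it was 2.86 for g01100, 2.52 for g01110, 2.67 for g01120, 3.08 for g01130, 2.35 for g01170 and 3.24 for g01280. For g01240 and g01300 at harvest it was 6.16 and 7.90, values that take in summer libraries of ‘Muscat Hamburg’ at 0.

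Between harvest and E-L 35 of ‘Victoria’ grapes the season difference changed by -4.19 for g01100, -4.87 for g01110, -3.85 for g01120, -5.12 for g01130, -3.21 for g01170, -6.30 for g01240, -4.72 for g01280 and -7.82 for g01300. The winter libraries of g01300 at harvest were 2.76, 0.00 and 0.05 FPKM. The copy g01360 was the one without such a change past the threshold.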

How the results depend on the processing

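The 9 copies called at E-L 35 of ‘Victoria’, the 9 at E-L 36 of ‘Muscat Hamburg’ and the rise of g01360 at harvest of ‘Victoria’ kept their direction under all alternatives that tested them. The fits differed more where levels were low or a library stood apart. The cause of a change was not tested unless stated.

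With only genes of at least 10 counts in every library, 4 copies could be tested (g01100, g01120, g01170 and g01360), which by construction lowered the counts of copies. By season they were 4 (‘Victoria’ E-L 35), 0 lower (‘Victoria’ E-L 38) and 4 and 4 (‘Muscat Hamburg’ E-L 36 and 38). By stage they were 4 (‘Victoria’ summer to E-L 36), 4 and 1 lower (winter to E-L 36 and to E-L 38), 1 (‘Muscat Hamburg’ summer to E-L 36), and 4 and 0 (winter to E-L 36, and lower to E-L 38). Between varieties they were 1, 1 and 2 lower in summer, 4 lower at winter E-L 35 and 1 higher at winter E-L 38, and for the interactions 1 (E-L 35), 3 (E-L 38) and 3 (‘Victoria’ by stage). The VIT_216s0100g run gave 2, 0 and 1 (lower) in ‘Victoria’ and 1, 2 and 1 in ‘Muscat Hamburg’.

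DESeq2 gave 0 copies lower at harvest of ‘Victoria’, 6 higher at E-L 35 of ‘Muscat Hamburg’, 1 lower from E-L 36 to 38 in ‘Victoria’ winter and 0 in ‘Muscat Hamburg’ winter, 1 for the season by stage test in ‘Muscat Hamburg’, and 18 of the run at E-L 35 of ‘Muscat Hamburg’. Fitting only the libraries compared gave, by season, 4 lower (‘Victoria’ E-L 38) and 6 higher and 1 lower (‘Muscat Hamburg’ E-L 35), by stage 1 (‘Victoria’ summer to E-L 36), 5 lower (‘Victoria’ winter to E-L 38) and 4 lower (‘Muscat Hamburg’ winter to E-L 38), between varieties 6 and 1 lower (summer E-L 35 and 36) and 6 and 5 higher (winter E-L 36 and 38), and 3 copies each for the variety interaction at E-L 36 and the stage interaction of ‘Muscat Hamburg’. It gave 0 and 1 pathway genes lower (‘Victoria’ E-L 36 and 38) and 0, 18 (lower), 21 and 17 genes of the run (‘Victoria’ E-L 36 and 38, ‘Muscat Hamburg’ E-L 35 and 38).

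With limma on log2(FPKM + 0.1), 3 copies rose and 4 fell from E-L 35 to 36 in ‘Victoria’ summer and winter, 3 passed the variety interaction at E-L 36 and 1 the stage interaction of ‘Muscat Hamburg’, with 0 and 1 pathway genes lower in ‘Victoria’ and 14 of the run at E-L 35 of ‘Muscat Hamburg’. On log2(FPKM + 1) the counts were 1 (season, ‘Muscat Hamburg’ E-L 35), 4, 1 lower and 1 (to E-L 36 in ‘Victoria’ summer, to E-L 38 in ‘Victoria’ winter, to E-L 36 in ‘Muscat Hamburg’ summer), 1 and 3 lower and 1 higher (varieties, summer E-L 35 and 38 and winter E-L 38), 5 and 4 (interactions at E-L 35 and 38), 0 pathway genes lower at E-L 36 of ‘Victoria’, and 4, 2 and 6 genes of the run. Scaling by library size alone gave 5 lower and 1 higher (varieties, summer E-L 35, winter E-L 38), 5 (interaction, E-L 38) and 1 pathway gene lower at E-L 38 of ‘Victoria’, which was also 1 with RLE factors. The log2 ratio of the sum without g01100 was 1.41 at E-L 35 of ‘Muscat Hamburg’.

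Samples with the same replicate number did not deviate together (median r = 0.0018, and 12 of 198 pairs above 0.1), so the numbers do not pair them. With the replicate number as a block, 1 copy was higher at winter E-L 38 between varieties, 5 passed the interaction at E-L 38, 1 and 1 pathway genes were lower (‘Victoria’ E-L 36 and 38) and 4 genes of the run passed at E-L 35 of ‘Muscat Hamburg’. The replicate block moved no other count by over 1.5 times.

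Leaving out single libraries, the counts of copies ran from 0 to 1 and 0 to 2 lower (season, ‘Victoria’ E-L 36 and 38), 1 to 3 (‘Muscat Hamburg’ E-L 35), 4 to 9 and 0 to 1 lower (‘Victoria’ summer to E-L 36 and 38), 0 to 8 lower (‘Victoria’ winter to E-L 36), 0 to 1 either way (to E-L 38) and 0 to 1 lower (‘Muscat Hamburg’ winter to E-L 38). They ran from 1 to 3, 0 to 8 and 2 to 5 lower and 0 to 3 higher between varieties (summer stages, winter E-L 38) and from 1 to 2, 3 to 9 and 3 to 8 for the variety interactions. Pathway genes lower ran from 0 to 2 and 0 to 3 (‘Victoria’ E-L 36 and 38). The run had 1 to 2 higher and 0 to 6 lower (‘Victoria’ E-L 36), 5 to 12 lower (E-L 38) and 2 to 4, 16 to 27 and 1 to 11 higher (‘Muscat Hamburg’). The summed log2 ratio at E-L 36 of ‘Victoria’ ran from -0.80 to 0.17.

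Leaving out both ‘Victoria’ summer libraries that stood apart (replicate 1 at E-L 36 and E-L 38), an alternative chosen after seeing the data, gave 1 copy lower by season at E-L 36, 1 lower from E-L 36 to 38 in ‘Victoria’ summer, 8 lower between varieties at summer E-L 36, 9 for the interaction at E-L 36 with 1 pathway gene lower at E-L 38 and 6 genes of the run lower at E-L 36 of ‘Victoria’. At E-L 36 of ‘Victoria’ it turned g01120, g01170, g01240, VIT_200s2849g00010 and VIT_204s0023g03370 to -0.52, -0.36, -0.40, -0.55 and 0.28.

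The values that changed sign had no stable direction, and except for the F3H gene none had passed the threshold. At E-L 36 of ‘Victoria’ they were g01100 (0.55 and 0.38 with limma, -0.70 to 0.24 over single libraries left out), g01120 (-0.02 by library size, -0.52 to 0.71), g01130 (0.15, -0.88 to 0.18), g01170 (-0.36 to 0.65), g01240 (-0.01 by library size, -0.40 to 0.47), g01280 (0.55 and 0.0003, -1.17 to 0.01), g01300 (0.61), VIT_200s2849g00010 (-0.02 by DESeq2 and by library size, -0.01 with the block, -0.55 to 0.75) and the F3H gene VIT_204s0023g03370 (-1.47 to 0.28). Elsewhere, over single libraries left out, they were g01170 (-0.02 to 0.65) and VIT_204s0023g03370 (-0.41 to 0.46) at E-L 38 of ‘Victoria’, VIT_200s2849g00010 at E-L 35 of ‘Muscat Hamburg’ (-0.01 to 1.29), and the variety interactions of g01110 at E-L 35 (-1.30 to 0.04) and of g01360 at E-L 38 (-0.68 to 0.04). Where a group held at most 3 counts in each library, as for g01240 and g01300 in ‘Muscat Hamburg’ at E-L 35, depth sets the lower bound of a fold. Leaving out single libraries of the other group, a check chosen after seeing the data, gave 60.0 to 192 for the bound of g01300 between the varieties (145 with all) and 55.6 to 87.4 for its rise to E-L 36. The season bounds at E-L 35 of ‘Muscat Hamburg’ did not hold. That of g01240 fell from 2.47 to 0 without winter replicate 3, and that of g01300 from 1.50 to 0.0761 without summer replicate 2.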

Other observations

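Among the identifiers between the first and the last PAL copy, VIT_216s0039g01210 was higher in winter at E-L 35 of ‘Victoria’ (log2 fold change 1.69 in edgeR, adjusted p = 0.0281) and at E-L 36 of ‘Muscat Hamburg’ (2.97, adjusted p = 0.000679). VIT_216s0039g01200 was upregulated in the same comparisons (1.67, adjusted p = 0.0407, and 2.86, adjusted p = 0.00583), in which all 9 PAL copies were. By edgeR at E-L 35 of ‘Victoria’, VIT_216s0039g01330 was also upregulated (1.60, adjusted p = 0.0018), while VIT_216s0039g01180 was downregulated (-1.95, adjusted p = 0.0346). At E-L 38 of ‘Muscat Hamburg’, where 7 PAL copies were upregulated, VIT_216s0039g01260 was downregulated (-5.22, adjusted p = 0.00345 in edgeR). In edgeR, VIT_216s0039g01210 and VIT_216s0039g01200 were also upregulated at E-L 36 of ‘Victoria’ (2.08, adjusted p = 0.0077, and 2.44, adjusted p = 0.00318), where 0 PAL copies passed. VIT_216s0039g01200 passed at E-L 35 of ‘Muscat Hamburg’ as well (3.24, adjusted p = 0.0112), where 3 PAL copies did. At harvest of ‘Victoria’ grapes VIT_216s0039g01210, VIT_216s0039g01260, VIT_216s0039g01310 and VIT_216s0039g01330 were downregulated (-3.50, -3.69, -1.51 and -3.24, adjusted p = 0.00728, 0.00076, 0.0079 and 1.58e-05), while VIT_216s0039g01200 was upregulated (1.67, adjusted p = 0.047). VIT_216s0039g01160, which lies between g01130 and g01170 in the order of identifiers, had 6.25 to 16.95 FPKM over all libraries and passed the season threshold in none of the 6 comparisons. These genes were picked after their values were seen.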
